A study of Mus musculus with 17 samples.

Results

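The comparison described here is that of type 1 conventional dendritic cells (cDC1s) given debris of necroptotic tumor cells (RIPK3) with cDC1s given debris of apoptotic tumor cells (BimS). Its members were chosen by their labels as the 6 cDC1 samples with either debris, 3 per group, of 17 samples in the series, and were compared over all genes. The cDC1s came from spleens of 8-week-old female C57BL/6JRj mice that carried B16 tumor cells producing FLT3 ligand, a cytokine that expands dendritic cells, so that they stem from tumor-bearing animals, and spleens of several mice were pooled. CD11c+ spleen cells were cultured for 6 h with the whole medium of TC-1 cells, a transformed mouse lung epithelial line, after which live cDC1s were sorted as XCR1+, CD8α+ and SIRPα- cells. The medium came from clonal TC-1-iBimS cells, in which the inducer cumate switches on the BH3-only protein BimS, or from clonal TC-1-iRIPK3 cells, in which it switches on a form of RIPK3 that oligomerizes by itself. Cumate was also given to the unmodified TC-1 cells whose medium served as the control (WT, 3 cDC1 samples), so the inducer was shared by all groups, and a difference between debris of the sublines also holds any difference between these clones. The labels do not say whether replicates were separate cultures, and p-values then measure the spread between these samples, which may be technical.

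cDC1s are the dendritic cells that take up dead cells, sense their DNA or RNA in endosomes and the cytosol, and present their antigens to CD8+ T cells. Apoptosis is dismantling of the cell by caspases, in which the membrane stays closed for some time and signals for silent uptake are shown. Necroptosis follows when RIPK3 activates MLKL, which opens the plasma membrane and releases the contents of the cell. The question of the comparison was whether cDC1s respond differently to the debris of these deaths.

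The samples held between 17556976 and 21645289 reads counted on genes, and all levels below are CPM, counts scaled to a common library size after TMM normalization. Of 19513 genes tested, 378 were higher with RIPK3 debris, which is 1.94% of the genes, and 432 were lower, which is 2.21%, at an adjusted p under 0.05 (edgeR quasi-likelihood test, Benjamini-Hochberg). Differences were small, with a median size of 0.30 (log2) over the 810 genes called, and 35 of these genes differed by more than 1, of which 13 were higher and 22 lower. The CPM of the RIPK3 and BimS samples did not overlap for 795 of the 810, and for 19.2% of all genes tested. The fit of limma on unnormalized log2 counts, the model of the study's methods, called 403 genes at the same adjusted p, with no threshold on the fold, of which 58 were higher, or 14.4% of its calls against 46.7% here. With the replicate number as a block, 795 genes (4.07%) were higher and 935 (4.79%) lower. Without BimS replicate 3, the sample whose removal cost most calls, 489 genes were called.

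**Figure D1:**
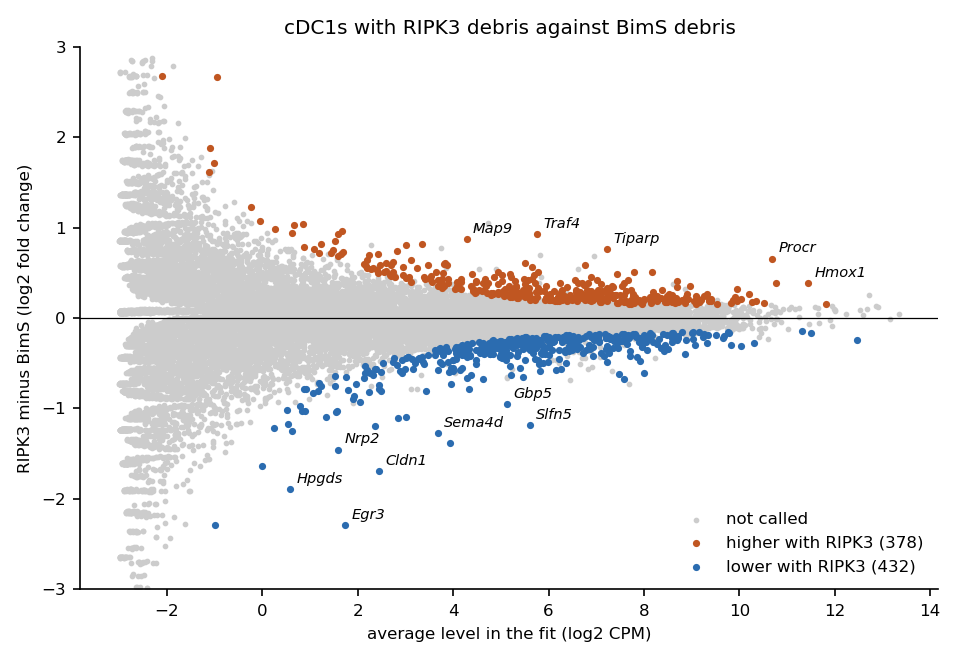
Each point is a gene, with its average level in the fit of the 9 cDC1 samples (log2 CPM) on the x axis and its log2 fold change of RIPK3 against BimS debris on the y axis. Called genes are colored, and most of the 810 lie within 1 of 0, with Traf4 among the highest and Sema4d and Slfn5 among the lowest of the well-expressed genes. The axis ends at 3 and leaves out 138 genes, of which 5 were called.

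RIPK3 replicate 3 stood apart from the other samples in a way that depended on gene length. Over 7854 genes with a mean log2 CPM of at least 3 and a known transcript length, the median deviation from the group mean in the longest quintile less that in the shortest quintile was -0.158 (log2) in RIPK3 replicate 3. It was 0.0995 in RIPK3 replicate 1 and 0.0639 in RIPK3 replicate 2, and lay between -0.0709 and 0.0501 in the BimS samples. The median log2 fold change ran from 0.037 in the shortest quintile to -0.046 in the longest, and from 0.0088 to 0.0014 with RIPK3 replicate 3 left out. In the longest quintile, 42 genes were higher and 97 lower, against 90 and 69 without that sample. Its part in single results was not tested, and genes named below whose call was lost without it are marked as such. Without RIPK3 replicate 3, 904 genes were called.

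**Figure D2:**
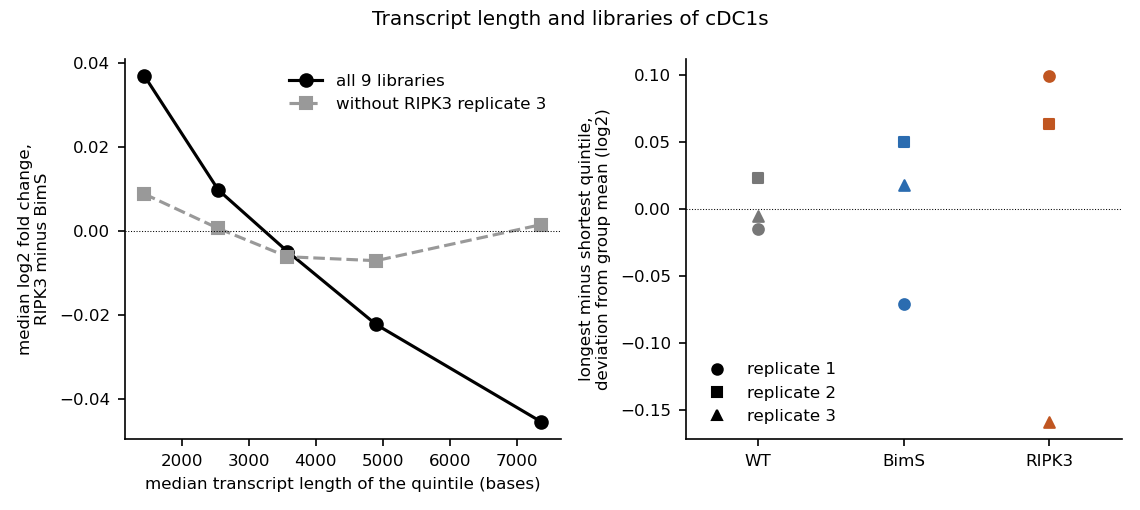
The left panel gives the median log2 fold change of RIPK3 against BimS debris (y axis) by quintile of canonical transcript length in bases (x axis), with all 9 samples (black circles) and without RIPK3 replicate 3 (grey squares), and the black line falls from 0.037 to -0.046. The right panel gives, for each sample by medium, the median deviation from its group mean (log2) in the longest quintile less that in the shortest, where RIPK3 replicate 3 is the lowest, at -0.158.

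Among the genes that interferons induce, those called were lower with necroptotic than with apoptotic debris. Interferons are cytokines that alert cells to infection, and through STAT2 and IRF9, among others, they switch on antiviral genes, many of which carry the motif GAAANNGAA of the interferon response element. Of 57 interferon-stimulated genes tested, 19 fell and 0 rose, where 2.21% of all genes fell, and 12 of the 19 were called whichever cDC1 sample was left out. The median log2 fold change over the list was -0.38, against -0.0046 over all genes tested. With the replicate block, 37 fell and 0 rose, and with a sample left out between 12 (without BimS replicate 1) and 27 (without BimS replicate 2) fell. The summed level of the list was 3520, 3064 and 3581 CPM with BimS debris and 2769, 2448 and 2998 CPM with RIPK3 debris, and the groups did not overlap. With WT medium it was 3932, 3671 and 4168 CPM, above all 6 samples with debris.

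Gbp2, Gbp3 and Gbp5, guanylate-binding GTPases that attack the compartments of intracellular pathogens, and Slfn5 and Slfn8, of the Schlafens, which restrict viral replication and cell growth, were among the 15 largest falls of well-expressed genes. The 15 largest rises and falls were picked among called genes whose groups did not overlap, so that a lack of overlap is no added support for them. Gbp3 (ENSMUSG00000028268, chr3:142265731-142278979 of GRCm39) was at 11.0, 9.48 and 10.6 CPM with BimS and at 5.43, 4.28 and 4.73 CPM with RIPK3 debris. Every RIPK3 sample lay below every BimS sample, a log2 fold change of -1.10 ± 0.13 (SE) at an adjusted p of 1.06e-06. With WT medium Gbp3 was at 11.1, 8.73 and 11.5 CPM, on both sides of the BimS samples and above every RIPK3 sample. Gbp2 fell by 0.81 (log2, SE 0.12, adjusted p = 2.97e-05), from 12.7 ± 1.5 to 7.27 ± 0.70 CPM (SD, n = 3 each). Gbp5 fell by 0.95, from 40.1 ± 4.6 to 20.7 ± 2.7 CPM, and Gbp7 fell by 1.19, from 6.24 ± 0.49 to 2.74 ± 0.47 CPM. Gbp4 was at 31.4, 26.04 and 33.0 CPM with BimS and 27.3, 20.3 and 30.0 CPM with RIPK3 debris, and was called only with the block (log2 fold change -0.23, adjusted p = 0.0197). Gbp2, Gbp3, Gbp5 and Gbp7 lie on chromosome 3 and Gbp4 on chromosome 5. Genes of this family resemble each other in sequence, so that the authors' counting may have split reads between them.

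Slfn5 (ENSMUSG00000054404, chr11:82842100-82855666) was at 62.4, 45.7 and 52.1 CPM with BimS and at 26.6, 18.4 and 25.6 CPM with RIPK3 debris. The groups were far apart, with a log2 fold change of -1.18 ± 0.16 at an adjusted p of 0.00911, and both lay below the 96.7, 88.2 and 95.0 CPM of WT medium. Slfn8 (ENSMUSG00000035208) was at 22.4, 20.2 and 21.3 CPM with BimS and at 13.0, 12.3 and 11.7 CPM with RIPK3 debris, a log2 fold change of -0.79 ± 0.09 at an adjusted p of 1.42e-07. Its WT level was 31.3, 29.1 and 32.2 CPM, so that Slfn8 also stepped down from WT to apoptotic and from apoptotic to necroptotic debris. Slfn1 was at 2.76, 2.16 and 3.47 CPM with BimS and 1.62, 1.26 and 2.42 CPM with RIPK3 debris, and was not called (log2 fold change -0.67, adjusted p = 0.104), but was with the block (0.0243), without RIPK3 replicate 3 (0.0115) and without BimS replicate 2 (0.042). The antiviral gene Samd9l was lower by 0.56 (log2, SE 0.07), at 45.7 ± 2.4 CPM with BimS and 31.1 ± 3.3 CPM with RIPK3 debris. Ifi205 and Ifi207, of the family of DNA sensors with a HIN domain, fell by 0.39 from 500.2 ± 13 to 381 ± 17 CPM and by 0.62 from 219.6 ± 8.9 to 143 ± 9.0 CPM. Eif2ak2, the kinase that halts translation on double-stranded RNA, fell by 0.36 from 101 ± 6.6 to 78.7 ± 7.9 CPM. Cxcl9, a chemokine that draws T cells, was at 49.3, 56.8 and 54.5 CPM with BimS and at 37.0, 44.5 and 41.0 CPM with RIPK3 debris, without overlap (log2 fold change -0.39 ± 0.07, adjusted p = 0.000243).

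Ifit2, which binds viral RNA, showed the largest fall of the well-expressed genes and a wide spread between samples. It was at 22.4, 14.1 and 21.3 CPM with BimS and at 8.58, 4.98 and 8.54 CPM with RIPK3 debris, a log2 fold change of -1.39 ± 0.24 at an adjusted p of 0.0247. The groups did not overlap, which the rule for naming the largest falls required. Ifit2 was called in 2 of 9 fits that each left out a sample, those without replicate 2 of BimS or of RIPK3. Its call was lost without any of the others, with adjusted p up to 0.102 without BimS replicate 3. Replicate 2 was the lowest of its group in each medium with debris, and with the block the adjusted p was 0.0015. Rnf213, a large ubiquitin ligase, had a log2 fold change of -0.68 at an adjusted p of 0.0315 that was likewise called in 2 of 9 such fits, those without RIPK3 replicate 1 or 2, and was lost without any other sample (adjusted p up to 0.123, without RIPK3 replicate 3).

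Several regulators and targets of the pathway were not called. Irf1 (log2 fold change -0.04), Irf9 (-0.08) and Isg15 (-0.23) had adjusted p between 0.547 and 0.792. These estimates moved with the samples, and without RIPK3 replicate 3 those of Isg15 and Irf9 were -0.42 and -0.13 (adjusted p = 0.0516 and 0.189). With a sample left out, Isg15 lay between -0.42 and -0.10, Irf9 between -0.13 and -0.03 and Irf1 between -0.10 and 0.01, and none of these was called. Stat2 was called at -0.31 ± 0.07 (adjusted p = 0.0106), from 247 ± 17 to 200 ± 18 CPM, a call lost without BimS replicate 1 or BimS replicate 3 (adjusted p = 0.0532 and 0.0529). Oasl2, Usp18 and Irf7 had fold changes of -0.51, -0.60 and -0.24 (log2) with adjusted p of 0.16, 0.329 and 0.719, and were called only with the block (0.0144 or below). Transcripts of interferon beta itself were near the limit of detection in every sample, with Ifnb1 between 0 and 0.203 CPM.

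**Figure D3:**
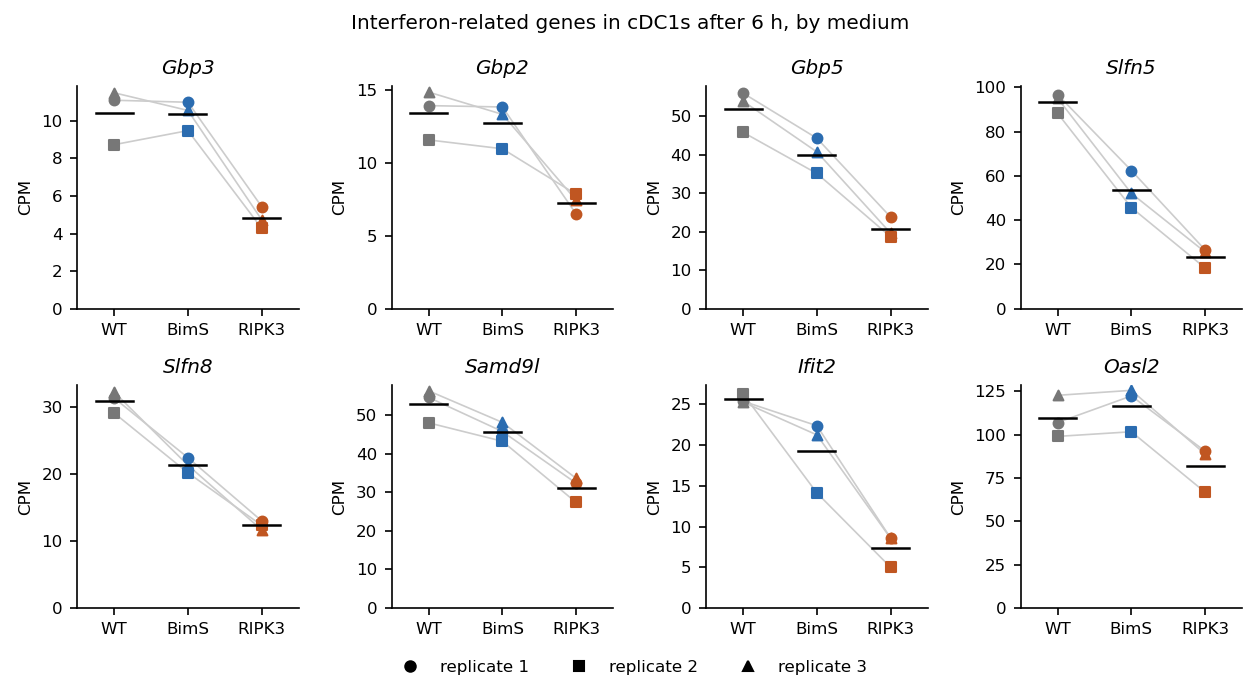
CPM of 8 interferon-stimulated genes by medium, with 1 panel per gene. Points are samples with a shape for each replicate number, grey lines join equal numbers and black bars are means of 3. In each panel the RIPK3 samples lie below the BimS samples of the same number, and for Slfn5 and Slfn8 both lie below WT.

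Promoters were read in the genome GRCm39, as the 250 bases before the start of the canonical transcript (GENCODE M39), and searched on both strands for GAAANNGAA. The motif was in 7.56% of 21757 promoters of protein-coding genes, in 23 of 57 promoters of the list and in 7 of the 19 of members that fell. The sequences of Slfn5, Slfn8 and Cxcl9 are given because these genes fell in every test that left out a sample and carry it. They run 5′ to 3′ on the strand of the gene, with the motif or its reverse complement in capitals. None of these matches overlapped any other motif searched. The Slfn5 stretch is chr11:82842678-82842810 (plus strand, 250 to 118 bases before the start), that of Slfn8 is chr11:82911670-82911919 (minus strand) and that of Cxcl9 is chr5:92475946-92476195 (minus strand). A match of these letters is a description of the sequence, not a site of binding.
Slfn5: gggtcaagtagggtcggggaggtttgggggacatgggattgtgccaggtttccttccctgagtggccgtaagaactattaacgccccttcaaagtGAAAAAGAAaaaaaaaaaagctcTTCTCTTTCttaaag
Slfn8: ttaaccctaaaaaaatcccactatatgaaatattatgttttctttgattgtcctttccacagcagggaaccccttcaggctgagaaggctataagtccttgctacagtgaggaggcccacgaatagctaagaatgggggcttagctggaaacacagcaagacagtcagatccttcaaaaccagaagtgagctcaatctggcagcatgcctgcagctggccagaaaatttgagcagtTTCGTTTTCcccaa
Cxcl9: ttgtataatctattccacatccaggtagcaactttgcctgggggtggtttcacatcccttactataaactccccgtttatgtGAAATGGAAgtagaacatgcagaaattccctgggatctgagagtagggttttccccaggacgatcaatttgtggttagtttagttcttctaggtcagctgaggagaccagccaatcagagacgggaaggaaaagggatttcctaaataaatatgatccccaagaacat

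A few sensors of nucleic acids and regulators of antigen presentation were also called lower. Of 29 Toll-like receptors and nucleic acid sensors, 4 fell and 0 rose (10 and 1 with the block), with a median log2 fold change of -0.15. Without BimS replicate 1 or BimS replicate 3 the number that fell was 1, and without RIPK3 replicate 2 it was 2. Tlr9, the endosomal receptor of DNA, was at 73.0, 69.4 and 72.0 CPM with BimS and at 57.7, 49.5 and 46.0 CPM with RIPK3 debris. The groups did not overlap, with a log2 fold change of -0.48 ± 0.07 at an adjusted p of 1.05e-05, and the WT samples, at 72.8, 65.7 and 71.3 CPM, lay with BimS. Tlr9 was the only one of the 4 that was called whichever sample was left out. Calls of Ifih1 (log2 fold change -0.34), Tlr13 (-0.30) and Sting1 (-0.23) were lost without BimS replicate 3 (adjusted p = 0.113, 0.153 and 0.135) and BimS replicate 1 (0.0576, 0.143 and 0.115). The calls of Ifih1 and Tlr13 were also lost without RIPK3 replicate 2 (adjusted p = 0.123 and 0.16), that of Tlr13 without RIPK3 replicate 3 (0.0579) and that of Sting1 without RIPK3 replicate 1 (0.124). Cgas, the cytosolic DNA sensor, was at 10.7, 10.9 and 11.7 CPM with BimS and 10.6, 10.9 and 8.66 CPM with RIPK3 debris, and was not called.

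Ciita, the master activator of MHC class II genes, was at 357, 377 and 402 CPM with BimS and at 313, 291 and 296 CPM with RIPK3 debris (log2 fold change -0.34 ± 0.05, adjusted p = 0.000102). The RIPK3 samples overlapped with WT medium, at 291, 308 and 337 CPM, and the BimS samples lay above both. Nlrc5, its counterpart for MHC class I, fell by 0.32 (SE 0.06), from 90.9 ± 6.1 to 72.8 ± 4.7 CPM. Of the 17 MHC class I genes, Nlrc5 was the one called (3 fell with the block, and 2 without RIPK3 replicate 3); B2m was at 1067, 1015 and 1106 CPM with BimS and 1062, 1057 and 1202 CPM with RIPK3 debris, and Tap1 had a log2 fold change of -0.01 at an adjusted p of 0.946. Of 14 genes of class II presentation, 2 rose (5 with the block or without RIPK3 replicate 1, and 1 without BimS replicate 1) and 3 fell, among them Marchf1, the ligase that removes MHC class II from the surface, by 0.35 from 75.8 ± 6.9 to 59.6 ± 5.2 CPM.

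Of the genes of the integrated stress response that were called, all but 1 were higher with necroptotic debris. In this response, kinases that sense lack of amino acids, heme or protein folding slow translation and raise ATF4, which switches on genes of amino acid supply and of growth arrest. Of 35 genes tested, 14 rose and 1 fell, where 1.94% of all genes rose, and the median log2 fold change was 0.18. Of these 15 calls, 11 held whichever sample was left out. Ddit4 (ENSMUSG00000020108, chr10:59785491-59788492), an inhibitor of the growth kinase mTORC1, was at 8.94, 8.12 and 7.66 CPM with BimS and at 15.1, 15.1 and 13.6 CPM with RIPK3 debris. Its groups were clearly separate, with a log2 fold change of 0.82 ± 0.11 at an adjusted p of 4.27e-06, and the WT samples, at 9.80, 7.96 and 8.29 CPM, lay with BimS. Trib3, a pseudokinase that restrains ATF4 and AKT, was at 33.1, 37.9 and 34.5 CPM with BimS and at 48.4, 55.8 and 57.2 CPM with RIPK3 debris (log2 fold change 0.61 ± 0.07, adjusted p = 1.06e-06). Here it was the BimS group that departed from WT medium, at 45.4, 53.6 and 48.9 CPM. Chac1, which degrades glutathione, followed the same order, at 16.7 ± 1.6 CPM with BimS and 23.4 ± 1.1 CPM with RIPK3 debris (log2 fold change 0.49 ± 0.09).

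Atf3, a transcription factor induced by many stresses, was at 107, 108 and 108 CPM with BimS and at 149, 170 and 167 CPM with RIPK3 debris, against 71.8, 74.7 and 71.4 CPM with WT medium. It rose in steps from WT to BimS to RIPK3, and the last step was 0.59 ± 0.05 (log2, adjusted p = 3.3e-09). Sesn2, another brake on mTORC1, rose by 0.33 from 134 ± 5.6 to 168 ± 9.8 CPM, and Slc1a4, a transporter of neutral amino acids, by 0.39 from 23.5 ± 1.7 to 30.7 ± 1.9 CPM. The factor itself, Atf4, rose by 0.19 ± 0.05 from 600 ± 13 to 685 ± 42 CPM (adjusted p = 0.0102). Asns, the asparagine synthetase that is a classical ATF4 target, did not follow, at 76.4, 72.0 and 74.5 CPM with BimS and 67.2, 69.7 and 78.5 CPM with RIPK3 debris. The member that fell was Aldh1l2, of mitochondrial folate metabolism (log2 fold change -0.52, adjusted p = 0.018), a call lost without BimS replicate 2 (adjusted p = 0.208) and at 0.05 or above without BimS replicate 3 and RIPK3 replicate 3.

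The core of the composite element that ATF4 binds, TGATGNAA, was in 3.39% of all promoters, in 6 of 36 of the list and in 3 of the 14 of members that rose. The promoter of Atf3 (chr1:190915538-190915787, minus strand, whole) and a part of that of Chac1 (chr2:119181519-119181548, plus strand, 170 to 141 bases before the start) are shown as examples, with the match, here on the reverse strand, in capitals.
Atf3: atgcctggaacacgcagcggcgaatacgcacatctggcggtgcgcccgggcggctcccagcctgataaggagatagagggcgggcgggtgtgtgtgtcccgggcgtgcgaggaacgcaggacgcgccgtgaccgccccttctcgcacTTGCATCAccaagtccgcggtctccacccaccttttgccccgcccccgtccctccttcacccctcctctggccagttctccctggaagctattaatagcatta
Chac1: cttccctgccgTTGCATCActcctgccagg

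Those chaperones that were called were higher as well. Of 28 heat shock and chaperone genes, 9 rose and 0 fell, and 13 rose with the block and 5 without BimS replicate 2 or BimS replicate 3. The median log2 fold change was 0.22, and 27 of the 28 estimates were above 0. Hspa8, the constitutive HSP70, was at 1390, 1337 and 1406 CPM with BimS and at 1723, 1720 and 1977 CPM with RIPK3 debris. Its log2 fold change was 0.39 ± 0.05 (adjusted p = 4.27e-06), and both groups lay below the 2139, 1984 and 2189 CPM of WT medium. Hsph1, which resets HSP70 for another round, was at 114, 108 and 117 CPM with BimS and at 152, 138 and 144 CPM with RIPK3 debris, above 78.0, 68.8 and 78.3 CPM with WT medium (log2 fold change 0.36 ± 0.06, adjusted p = 6.12e-05). Dnajb1, which hands clients to HSP70, rose by 0.30 from 54.7 ± 3.1 to 67.1 ± 6.3 CPM, and Hsp90aa1, the inducible HSP90, by 0.21 from 300.2 ± 4.0 to 347 ± 9.5 CPM. These 4 were the members called whichever sample was left out.

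Of the list, the inducible HSP70 gene Hspa1a showed the largest estimate, and its levels followed the replicate number. Hspa1a was at 32.1, 21.0 and 25.2 CPM with BimS and at 67.4, 45.7 and 49.4 CPM with RIPK3 debris, and replicate 1 was the highest and replicate 2 the lowest in both groups. The log2 fold change of 1.06 ± 0.25 was not called (adjusted p = 0.0926), and was called with the block (2.49e-25). Hspa1b, a near-identical copy with which reads cannot be told apart with certainty, had 1.01 ± 0.27 (adjusted p = 0.125, and 3.04e-27 with the block). Hsf1, the factor that switches on this response, had a log2 fold change of 0.12 at an adjusted p of 0.542. The core of the element it binds, TTCNNGAA, was in 6.79% of all promoters and in 3 of 28 of the list, those of Hspd1, Hspe1 and Hsph1, which rose. Hspd1 had matches at bases -52 and -42 from the start and Hspe1 at -73 and -63, and whether these are the same stretch was not tested. Hspd1 and Hspe1 were called in 5 and 6 of 9 fits that left out a sample. A part of the promoter of Hsph1 (chr5:149559817-149559846, minus strand, 40 to 11 bases before the start) reads as follows with the match in capitals.
Hsph1: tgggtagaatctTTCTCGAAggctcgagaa

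**Figure D4:**
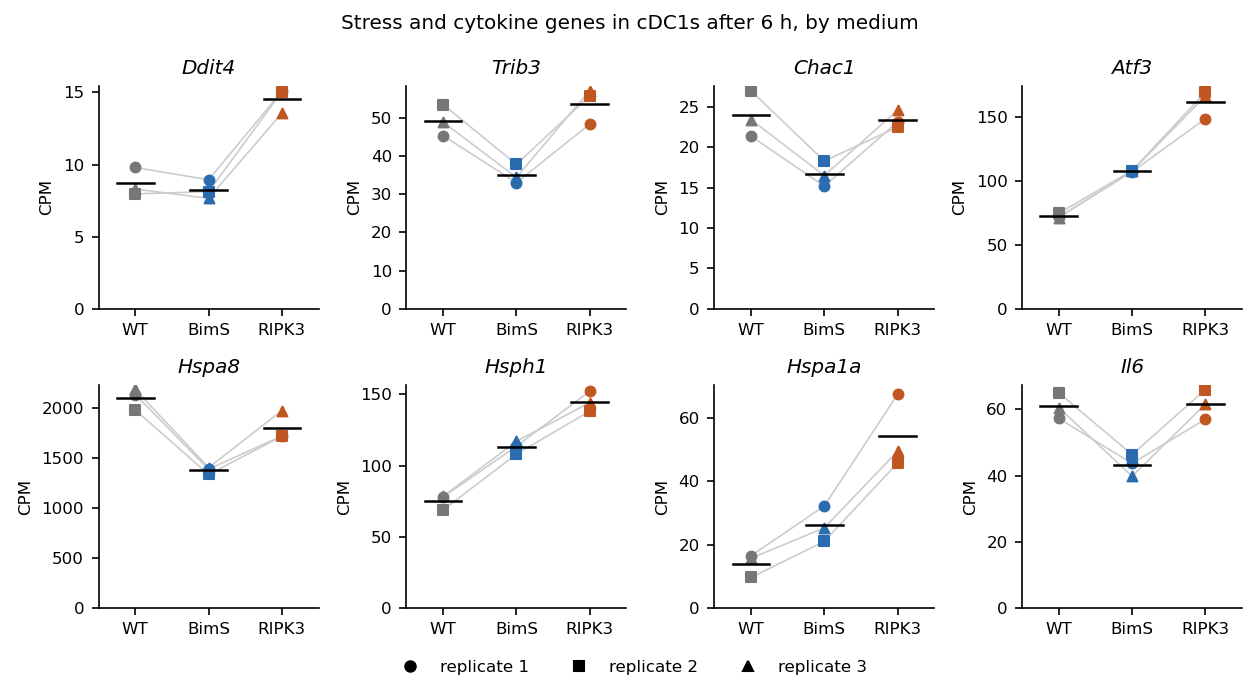
CPM of 4 genes of the integrated stress response, 3 chaperone genes and Il6 by medium, drawn as for the interferon-stimulated genes. The RIPK3 samples lie above the BimS samples in each panel, and for Hspa1a the grey lines run in parallel, with replicate 1 above replicate 2 in each medium.

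Immediate early genes, which respond to signals within minutes, moved in both directions. Of 27, 8 rose and 2 fell. Fos was at 117, 111 and 124 CPM with BimS and at 163, 150 and 158 CPM with RIPK3 debris, against 116, 111 and 120 CPM with WT medium, a log2 fold change of 0.42 ± 0.05 at an adjusted p of 2e-06 over BimS. Jun rose by as much, 0.42 ± 0.06, from 46.1 ± 2.7 to 61.5 ± 1.9 CPM, and Nr4a2, an orphan nuclear receptor, by 0.34 from 394 ± 33 to 499 ± 38 CPM. Its relative Nr4a3, a gene of dendritic cell activation and migration, was at 996, 955 and 932 CPM with BimS and at 815, 771 and 737 CPM with RIPK3 debris and fell by 0.31 (SE 0.05, adjusted p = 6.63e-05). The fall of Egr3, a target of calcium and NFAT signals, was the third largest among the genes called. It was at 10.5, 7.18 and 9.05 CPM with BimS, 2.94, 0.705 and 1.79 CPM with RIPK3 debris and 2.35, 2.35 and 2.43 CPM with WT medium, a log2 fold change of -2.29 ± 0.32 at an adjusted p of 0.00244. The BimS samples, with 206, 153 and 175 reads of Egr3, stood above all others.

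Of 25 genes of the circadian clock and of the glucocorticoid response, 4 rose and 0 fell. Tsc22d3, which encodes the anti-inflammatory glucocorticoid-induced leucine zipper, was at 39.7, 38.9 and 39.0 CPM with BimS and at 56.4, 56.3 and 62.1 CPM with RIPK3 debris (log2 fold change 0.57 ± 0.06, adjusted p = 1.42e-07). The WT level, 53.1, 54.9 and 58.8 CPM, was that of the RIPK3 samples. Per1, of the clock, rose by 0.48 from 48.7 ± 3.95 to 67.9 ± 2.1 CPM, and Sgk1, a kinase of ion transport and survival, by 0.36 from 175 ± 10.2 to 224 ± 7.8 CPM, and both were above WT medium with either debris.

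Of 32 cytokine genes of dendritic cells, 3 rose and 0 fell (5 and 1 with the block). Il6, a cytokine of inflammation and T cell help, was at 43.6, 46.3 and 39.8 CPM with BimS and at 57.0, 66.0 and 61.5 CPM with RIPK3 debris. The RIPK3 samples lay with the 57.2, 65.0 and 60.5 CPM of WT medium, and the BimS samples below (log2 fold change of RIPK3 against BimS 0.51 ± 0.07, adjusted p = 4.27e-06). Areg, the growth factor amphiregulin, rose by 0.93 ± 0.20 (adjusted p = 0.00547), from 2.81 ± 1.03 to 5.38 ± 0.97 CPM. Il1b was called at 0.15 (adjusted p = 0.033), and the call was lost without BimS replicate 3 (adjusted p = 0.204), RIPK3 replicate 2 (0.112) or BimS replicate 2 (0.0706). Il12b, a subunit of the cytokine that drives cytotoxic responses, was at 9.61, 8.54 and 12.7 CPM with BimS and at 14.2, 14.3 and 24.4 CPM with RIPK3 debris. These did not overlap, yet the log2 fold change of 0.78 ± 0.26 was not called (adjusted p = 0.207), and was 0.48 and called (adjusted p = 0.00653) without RIPK3 replicate 3, its highest sample. It was called with the block (adjusted p = 1.88e-05). Tnf was between 2.86 and 5.20 CPM in these 6 samples and was not called.

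Semaphorins, plexins and neuropilins, ligands and receptors that steer cell migration, included some of the largest differences. Of 21 tested, 4 fell with RIPK3 against BimS debris and 2 rose, with a median log2 fold change of -0.25. The ligand Sema4d (ENSMUSG00000021451, chr13:51836318-51947922), which acts on B cells, macrophages and endothelium, was at 23.1, 18.1 and 19.4 CPM with BimS and at 9.29, 7.70 and 7.97 CPM with RIPK3 debris. Its log2 fold change was -1.28 ± 0.10 (adjusted p = 3.45e-10), and WT medium gave 12.1, 12.0 and 12.8 CPM, between the groups. The receptor Nrp2 was at 6.18, 5.12 and 4.97 CPM with BimS and at 2.18, 1.61 and 2.14 CPM with RIPK3 debris, where WT medium gave 2.90, 1.89 and 2.21 CPM, a log2 fold change of -1.46 ± 0.19 at an adjusted p of 3.6e-06. Plxna1, a receptor that dendritic cells use in contacts with T cells, fell by 0.67 from 41.0 ± 2.4 to 25.7 ± 3.1 CPM, and was at 12.6, 13.9 and 16.2 CPM with WT medium. Sema4a, a ligand that costimulates T cells, fell by 0.40 from 60.3 ± 3.2 to 45.8 ± 1.6 CPM. Sema4f went the other way, at 98.3, 117 and 115 CPM with BimS and 132, 153 and 146 CPM with RIPK3 debris (log2 fold change 0.39 ± 0.07). So did Sema6d (0.49 ± 0.10), a call lost without BimS replicate 3 (adjusted p = 0.0566) or BimS replicate 1 (0.0545).

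A few genes of cholesterol sensing were called lower with necroptotic debris. Of 31 genes of cholesterol synthesis and of SREBP2, the factor that senses low cholesterol, 4 fell and 0 rose (8 and 1 with the block, and 7 and 2 without RIPK3 replicate 1), with a median of -0.15. Srebf2, which encodes SREBP2, fell by 0.25 from 189 ± 10.3 to 158 ± 8.3 CPM, and Insig1, which retains SREBP2 in the endoplasmic reticulum, by 0.33 from 33.9 ± 2.5 to 26.9 ± 1.4 CPM. Stard4, a cholesterol carrier, was called at -0.45 (adjusted p = 0.0207), and not without BimS replicate 1 (0.162) or RIPK3 replicate 3 (0.0722). Nceh1, which frees cholesterol from its esters, fell by 0.79 from 7.602 ± 0.18 to 4.41 ± 0.43 CPM, and Mgll, which cleaves monoglycerides, rose by 0.86 from 5.44 ± 0.28 to 9.86 ± 1.06 CPM, where WT medium gave 0.400, 0.408 and 0.225 CPM.

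Of 28 receptors and bridging molecules for the uptake of dying cells, 3 fell and 0 rose (5 and 2 with the block, and 1 rose without BimS replicate 2 or RIPK3 replicate 3). Timd4 (TIM-4), a receptor of phosphatidylserine, the lipid that apoptotic cells expose, was at 33.5, 42.1 and 35.9 CPM with BimS and at 24.8, 26.2 and 20.8 CPM with RIPK3 debris, both below the 58.8, 55.8 and 55.0 CPM of WT medium, with a log2 fold change between debris of -0.63 ± 0.08 (adjusted p = 1.8e-05). Cd300lf, at a low level, fell by 1.63 ± 0.35 (adjusted p = 0.00349) from 1.27 ± 0.25 to 0.397 ± 0.162 CPM. Havcr1 (TIM-1) had a log2 fold change of -0.44 at an adjusted p of 0.0414, a call lost without RIPK3 replicate 3 (adjusted p = 0.184), BimS replicate 1 (0.157), BimS replicate 2 (0.111) or RIPK3 replicate 2 (0.0856). Axl, which meets phosphatidylserine through a bridging protein, was between 1.56 and 2.83 CPM in these 6 samples and was not called.

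Genes that define cDC1s were expressed in all samples. Of 20 cDC1 genes, 1 rose and 4 fell (5 and 6 with the block), and 15 were not called. The shares of all genes that rose and fell were lower, at 1.94% and 2.21% (4.07% and 4.79% with the block). Without RIPK3 replicate 1, 4 rose and 4 fell, without BimS replicate 3 or RIPK3 replicate 2, 1 rose and 2 fell, and without BimS replicate 1, RIPK3 replicate 3 or WT replicate 3, 2 rose. Clec9a, the receptor for actin of dead cells, was at 288, 280 and 298 CPM with BimS and at 277, 284 and 296 CPM with RIPK3 debris, and Xcr1 at 203, 206 and 215 against 212, 233 and 236 CPM, of which Xcr1 was called with the block (log2 fold change 0.13, adjusted p = 0.0357). Irf8 and Batf3, which specify the lineage, had log2 fold changes of -0.07 and 0.15 and were not called. Cd8a, which was also used to sort the cells, rose by 0.61 ± 0.11 (adjusted p = 0.000419), from 12.1 ± 0.8 to 18.6 ± 3.5 CPM. The integrin Itgae (CD103) fell by 0.38 from 32.2 ± 3.1 to 24.7 ± 1.0 CPM and Rab7b, a GTPase of late endosomes, by 0.35 from 287 ± 10.3 to 225 ± 18 CPM. Wdfy4, required for cross-presentation, was called at -0.23 (adjusted p = 0.015), and not without RIPK3 replicate 3 (0.175), BimS replicate 3 (0.13) or RIPK3 replicate 2 (0.0584).

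Of 34 costimulatory molecules and maturation markers, 0 rose and 2 fell, where 1.94% of all genes rose and 2.21% fell. With the block 1 rose and 4 fell, where 4.07% and 4.79% of all genes did. Without RIPK3 replicate 3, 1 rose and 3 fell, and the number that fell was 1 without any sample other than RIPK3 replicate 3 and BimS replicate 3. Cd86 was at 845, 811 and 794 CPM with BimS and 865, 846 and 918 CPM with RIPK3 debris, and Cd80 at 211, 232 and 203 against 205, 226 and 210 CPM. Cd40 (log2 fold change -0.09 ± 0.06) and Ccr7, the receptor for migration to lymph nodes (-0.12 ± 0.11), were not called. Slamf7, an adhesion receptor of activated leukocytes, fell by 0.37 (SE 0.05, adjusted p = 2.81e-06) from 342 ± 13 to 265 ± 9.3 CPM. Of the cytokine receptors, 5 of 37 rose and 3 fell (7 and 8 with the block, and 2 rose without BimS replicate 3 and 3 without BimS replicate 1 or RIPK3 replicate 2), among them Il4ra, from 384 ± 2.4 to 456 ± 7.4 CPM (0.25), Kit, from 344 ± 20.5 to 271 ± 17 CPM (-0.34), and Il18rap, from 5.30 ± 0.46 to 2.78 ± 0.09 CPM (-0.93).

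Cell death genes included those that the tumor lines overexpress. Bcl2l11, which encodes the BIM proteins, was at 1360, 1318 and 1375 CPM with BimS and at 1190, 1101 and 1064 CPM with RIPK3 debris, a log2 fold change of -0.27 ± 0.05 at an adjusted p of 0.000185. The BimS samples overlapped with WT medium, at 1349, 1286 and 1337 CPM, and the RIPK3 samples lay below both. Ripk3 was at 25.1, 28.4 and 27.2 CPM with BimS and 27.2, 28.0 and 33.0 CPM with RIPK3 debris and was not called (0.12 ± 0.08, adjusted p = 0.517). Of 39 genes of the BCL2 family and cell death, 2 rose and 6 fell (3 and 11 with the block), and 1 rose without BimS replicate 3. Casp4, the caspase-11 that senses bacterial endotoxin in the cytosol, fell by 0.44 from 35.99 ± 1.8 to 26.5 ± 1.7 CPM, and Pmaip1 (NOXA) rose by 0.21 from 916 ± 13 to 1063 ± 83 CPM.

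Genes of the oxidative stress factor NRF2 and of heme breakdown were high with either debris, with a median log2 fold change between debris of 0.02. Of 32, 4 rose and 2 fell with RIPK3 against BimS debris, where 1.94% of all genes rose and 2.21% fell. With the block 7 rose and 4 fell, where 4.07% and 4.79% of all genes did. Against WT medium, 29 were higher with BimS debris and 27 with RIPK3 debris. Without RIPK3 replicate 2 the counts of RIPK3 against BimS debris were 7 and 1, without BimS replicate 2 they were 4 and 4, and without BimS replicate 3 they were 4 and 1. Over all genes, 7.31% were higher and 5.89% lower with BimS debris than with WT medium, and 8.34% higher and 8.19% lower with RIPK3 debris. Hmox1, heme oxygenase, was at 571, 687 and 607 CPM with WT medium, at 5250, 5057 and 5174 CPM with BimS and at 6548, 6626 and 7024 CPM with RIPK3 debris. The step between debris was 0.38 ± 0.05 (log2, adjusted p = 1.02e-05), small beside the step from WT medium of 3.05 with BimS debris. Srxn1, sulfiredoxin, rose by 0.24 from 1346 ± 33 to 1585 ± 77 CPM. The metallothionein Mt1, which binds zinc, went the other way, at 29.1, 26.6 and 30.1 CPM with BimS and 19.0, 16.8 and 18.3 CPM with RIPK3 debris (log2 fold change -0.66 ± 0.08).

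Of 29 glycolytic genes and 40 genes of S phase and mitosis, 0 were called in this test. As 1.94% of all genes rose and 2.21% fell, 0 calls in lists of this size are near the share of all genes. With the block, 2 glycolytic genes rose and 2 fell, and 1 gene of the cell division list fell. With a sample left out, at most 1 gene was called in each list and direction. Ldha had a log2 fold change of -0.07 ± 0.05, Slc2a1, a glucose transporter, of 0.05 ± 0.07 and Top2a, a marker of dividing cells, of -0.13 ± 0.18. Estimates in the glycolytic list ran from -0.29 to 0.44 (log2). Slc2a3 and Hk2, which the study named for necroptotic debris, were not called. Without RIPK3 replicate 3 their log2 fold changes were 0.44 and 0.24 (edgeR adjusted p = 0.314 and 0.523).

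**Figure D5:**
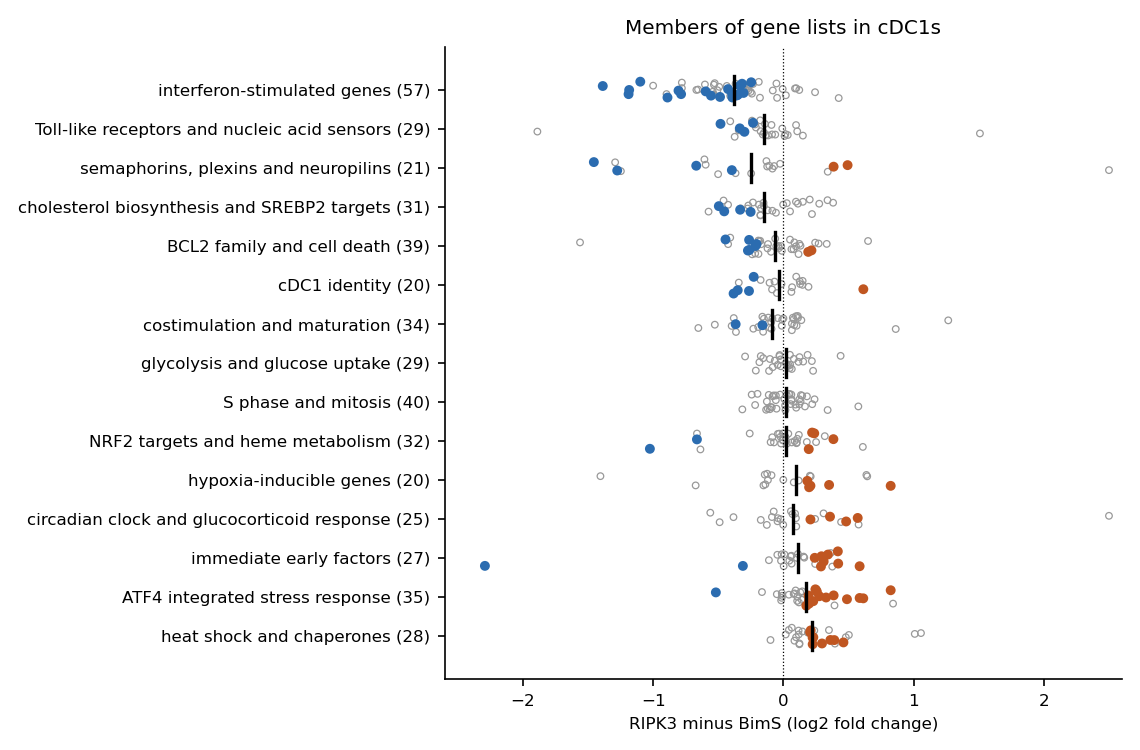
Log2 fold changes of RIPK3 against BimS debris on the x axis for the members of 15 gene lists, 1 line per list with the number tested in brackets. Points are genes, those called are filled and black bars are medians, and 2 members beyond 2.5 are drawn at the edge. The interferon-stimulated genes lie mostly below 0 (median -0.38), and the integrated stress response (0.18) and the chaperones (0.22) mostly above.

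The genes with the largest rises were of mixed function. Traf4 (ENSMUSG00000017386, chr11:78048186-78056417), an adaptor of TNF receptor and Toll-like receptor signals, was at 45.5, 43.2 and 40.0 CPM with BimS and at 79.5, 82.3 and 83.3 CPM with RIPK3 debris, and at 46.2, 47.7 and 42.5 CPM with WT medium. It led the well-expressed genes, with a log2 fold change of 0.93 ± 0.06 at an adjusted p of 1.17e-12. Tiparp, a target of the aryl hydrocarbon receptor that restrains it, was at 187, 185 and 177 CPM with BimS and at 318, 321 and 291 CPM with RIPK3 debris, against 63.0, 58.4 and 58.2 CPM with WT medium (0.76 ± 0.05, adjusted p = 1.17e-12). Procr, the endothelial protein C receptor, rose by 0.66 from 1849 ± 76 to 2920 ± 175 CPM, and Errfi1, an inhibitor of the EGF receptor, by 0.60 from 11.8 ± 1.5 to 17.8 ± 2.3 CPM. Map9, which binds microtubules, rose by 0.88 from 17.9 ± 2.7 to 32.9 ± 5.1 CPM. The other large rises were of Tex14, a gene of germ cell bridges (0.81), Cage1, a cancer and testis antigen (0.64), Hmga1b, an architectural chromatin protein (0.59), Stap1, a signaling adaptor (0.59), and Slc16a14, of the monocarboxylate transporter family (0.55). These 5 were between 5.90 and 14.4 CPM with BimS and between 9.54 and 22.5 CPM with RIPK3 debris, each without overlap, as the rule for naming them required. Hmga1b resembles Hmga1 closely, so that reads may have been split between them. Among the largest falls outside the groups above were Jup, plakoglobin of cell junctions, by 0.73 from 20.2 ± 3.5 to 12.2 ± 2.1 CPM, and Fnip1, a partner of the nutrient sensor folliculin, by 0.65 from 55.2 ± 1.7 to 35.1 ± 3.8 CPM. Dab2, an endocytic adaptor, was called at -0.63 (adjusted p = 0.00658), from 22.7 ± 3.1 to 14.7 ± 2.0 CPM, and not without RIPK3 replicate 1 (0.0515).

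The changes beyond 1 included genes at the edge of detection. Igkc, the light chain of antibodies, had 0, 5 and 0 reads with BimS and 77, 41 and 27 reads with RIPK3 debris, and 13, 20 and 29 with WT medium. Jchain, of antibody-secreting cells and chosen here after its values were seen, had 6, 1 and 1 against 20, 16 and 14 reads, and 8, 13 and 17 with WT medium. Both were lowest with BimS debris, and the 7 B cell markers tested, none of them called, summed to between 13.8 and 20.1 CPM with BimS and between 16.2 and 22.6 CPM with RIPK3 debris. Wwtr1 (TAZ), a gene of adherent cells, had 0, 0 and 0 against 4, 5 and 2 reads, and was called in 4 of 9 fits that left out a sample (adjusted p up to 0.129, without BimS replicate 3). Its call was lost without any of the BimS samples or without RIPK3 replicate 1 or 2. Ttc9 was at 0.0511, 0 and 0 CPM with BimS and at 0.305, 0.252 and 0.289 CPM with RIPK3 debris, a call lost without any RIPK3 sample or without BimS replicate 2 or 3 (adjusted p up to 0.173). Its reads were 0, 0 and 1 with WT medium, 1, 0 and 0 with BimS and 6, 5 and 5 with RIPK3 debris. Ttc9 met the filter of detection in 50% of the samples only through the RIPK3 group, so its entry into the test depended on the rise itself. The long noncoding genes 5033430I15Rik and Gm54310 were called lower. Gm54310 was at 0.920, 0.516 and 0.724 against 0.102, 0.101 and 0.231 CPM. The RIPK3 samples held no read of 5033430I15Rik, and its call was lost without BimS replicate 2 or any RIPK3 sample (adjusted p up to 0.128).

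Genes that the study named from these samples as features of each debris were counted in the same test, which is not independent evidence of their direction. Of 22 named for apoptotic debris, 7 were called and all of these were lower with RIPK3 debris, and of 28 named for necroptotic debris, 13 were called and all were higher. With the block these counts were 13 and 16, and without BimS replicate 3 or RIPK3 replicate 2 the count for necroptotic debris was 8. Tgfbi, an extracellular matrix protein induced by TGF-beta, fell by 0.30 from 657 ± 32 to 535 ± 31 CPM, and Smurf1, a ligase that limits TGF-beta signals, by 0.35 from 95.9 ± 8.0 to 75.2 ± 7.5 CPM. Inpp1, of inositol phosphate breakdown, rose by 0.43 from 42.5 ± 5.0 to 57.5 ± 0.9 CPM.

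Where the WT level lay was counted for the 706 called genes with a mean log2 CPM of at least 3, in comparisons that share the debris samples. Of the 328 that were higher with RIPK3 than with BimS debris, 115 were above WT with RIPK3 debris and not with BimS debris, 97 were above WT with both, 71 were below WT with BimS debris and not above it with RIPK3 debris, and 45 had another pattern. Of the 378 that were lower, 144 were below WT with RIPK3 debris and not with BimS debris, 88 were below WT with both, 92 were above WT with BimS debris and not below it with RIPK3 debris, and 54 had another pattern. Gbp3 and Traf4 are examples of genes that departed from WT medium with necroptotic debris, and Il6 and Tsc22d3 of genes that departed with apoptotic debris.

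Marker genes of other cells were summed in each sample. Of the tumor cell list, 15 of 20 genes were tested, 0 were called, and their summed level ran from 7.21 to 10.8 CPM with BimS, from 8.72 to 11.6 CPM with RIPK3 debris and from 6.54 to 7.598 CPM with WT medium. The markers Nkx2-1, Krt19, Sftpc, Cldn4 and Col3a1 were too low to be tested. Macrophage markers summed to between 113 and 160 CPM with BimS and 146 and 229 CPM with RIPK3 debris, with a median log2 fold change of 0.53. Of the 12, Fcgr1 was called, lower by 1.10 (log2) with RIPK3 debris, from 2.44 ± 0.49 to 1.15 ± 0.21 CPM. With the block 3 others were called higher, which were Cd14 (log2 fold change 0.70), C1qb (1.86) and Mrc1 (1.66), and 2 were higher without BimS replicate 3 and 1 without RIPK3 replicate 1. Cd14 made up most of the sum, at 81.1, 123 and 83.5 CPM with BimS and 118, 191 and 157 CPM with RIPK3 debris. Markers of cDC2s summed to between 70.3 and 89.3 CPM with BimS and 82.6 and 107 CPM with RIPK3 debris, and held no called gene, or 1 with the block, Clec12a, which was higher (0.35). Those of plasmacytoid dendritic cells, at 64.8 to 71.5 against 70.1 to 72.0 CPM, T and NK cells, at 0.879 to 1.53 against 1.10 to 1.42 CPM, neutrophils, at 1.81 to 1.99 against 2.13 to 2.52 CPM, and erythroid cells, at 0.610 to 1.5 against 0.252 to 1.07 CPM, held no called gene, though 1 erythroid marker was called lower without RIPK3 replicate 1. Of these lists only 6 of 8, 6 of 12, 2 of 8 and 2 of 6 genes were high enough to be tested, and S100a8, S100a9, Hba-a1 and Nkg7 were among those that were not. Their part in the results was not tested, and in bulk samples fewer cells of a type and less RNA per cell cannot be told apart.

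In cDC2s, the same comparison rested on 2 RIPK3 and 3 BimS samples and called 73 of 19239 genes, or 0.379%. Without RIPK3 replicate 1 of cDC2s 12 genes were called and without RIPK3 replicate 2 of cDC2s 0, so that every call given here for cDC2s was lost when that one was left out. With the replicate block the count was 2755. Of the interferon-stimulated genes, 18 were lower and 0 higher there, with a median log2 fold change of -0.53, beside -0.38 in cDC1s. Traf4 rose by 0.70 and Ddit4 by 0.67 in cDC2s (adjusted p = 0.00074 and 0.007). The difference between cDC1s and cDC2s was called for 6 of 19082 genes, or 0.0314% (27 with the block). At an unadjusted p under 0.05 it was 972 genes, a count near the one that this threshold gives where no gene differs. Sema4d had a log2 fold change of 0.11 in cDC2s (adjusted p = 0.9) beside -1.28 in cDC1s. Cldn1, a protein of tight junctions, had 0.13 in cDC2s, whereas in cDC1s it was at 9.46, 6.76 and 7.91 CPM with BimS and at 2.64, 2.47 and 2.31 CPM with RIPK3 debris, a log2 fold change of -1.69 ± 0.16 at an adjusted p of 3.79e-09. Hpgds, which makes prostaglandin D2, was at 3.42, 3.19 and 3.62 CPM with BimS and at 1.02, 0.755 and 0.982 CPM with RIPK3 debris in cDC1s (-1.89 ± 0.23, adjusted p = 1.49e-06) and had 0.52 in cDC2s (adjusted p = 0.65). Tent5c, a polymerase that lengthens the tails of transcripts, was at 325, 289 and 307 CPM with BimS and at 225, 216 and 223 CPM with RIPK3 debris, with 208, 201 and 209 CPM with WT medium (-0.47 ± 0.05, adjusted p = 5.66e-08), and had 0.09 in cDC2s. Gem and Jdp2 went up in cDC2s, by 0.59 and 0.57, and were not called in cDC1s, at 0.11 and 0.04.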

How the data were processed

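Bulk RNA sequencing of sorted cDC1s and cDC2s gave 17 samples. The authors trimmed reads with SeqPurge, aligned them with STAR 2.7.10a to GRCm39 (Ensembl annotation) and summed reads per gene with gensum, and the deposited values used here are these raw counts per gene. The deposited log2 normalized table holds the same samples scaled by the authors and was not used here. Lines without a gene identifier (148, 0.0258% to 0.0366% of counts) were left out. Symbols and coordinates of 30854 of 31091 identifiers came from GENCODE M39, in which 26 share a symbol. The columns of all samples were used.

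The 9 cDC1 samples were fitted in R 4.3.3 with the quasi-likelihood test of edgeR 4.0.16 (robust, TMM, genes detected in 50% of the samples or more), with contrasts between RIPK3, BimS and WT and a Benjamini-Hochberg threshold of 0.05. The study itself used limma on log2 counts, here an alternative. The 8 cDC2 samples, and all 17 for the interaction, were fitted likewise. Where no tool is named, an adjusted p comes from edgeR. Reads carry no molecular identifiers, so they are not independent molecules, and low counts hold amplification error beside counting error. On simulated data for the cDC1 comparison, with 200 of 18878 genes changed, 83 of 100 genes changed 1.5-fold and 100 of 100 changed 2-fold were recovered. Of 204 calls, 10.3% were false, which is more than the threshold of 0.05. The changed genes were drawn from those with a mean of at least 50 reads, and no effect of the replicate number was simulated. These rates therefore do not cover genes of few reads or smaller changes, such as the median size of 0.30 (log2) among the calls here.

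Pairing was checked from the data, since no source gives it. All 9 pairs of cDC1 samples with the same replicate number had deviations from the group means that correlated above 0.1 (r from 0.130 to 0.521). Of 18 pairs with different numbers, 1 did. Between BimS and RIPK3 samples, r was 0.130, 0.143 and 0.521 for equal numbers, and 0.195 for BimS replicate 1 with RIPK3 replicate 3. The main test left the replicate number out, and the block that includes it is given as an alternative. No sources name what samples of the same number share. No samples of a group agreed within sampling noise.

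Members and gene lists were chosen with earlier results of these data known. Named were the 15 largest rises and falls among called genes with a mean of at least 3 (log2 CPM) and groups that did not overlap, up to 5 called members per list and direction, uncalled members by their values, genes the study named, genes called in the interaction, Ripk3, Bcl2l11, and the 3 largest changes beyond 1 in each direction. Alternatives were RLE size factors, filterByExpr, no filter, DESeq2 1.42.0, limma 3.58.1 on log2(count + 1) and on log2 CPM, the replicate block, the samples of the compared groups alone, and each sample left out. None were added later. Some members of the lists are not reported here by name.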

Additional observations from a re-analysis of the deposited data

Results flagged for a closer look

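The difference between necroptotic and apoptotic debris differed between cDC1s and cDC2s for 6 genes in a test of the interaction in edgeR. The log2 fold change in cDC1s less that in cDC2s was -2.41 for Hpgds, -1.83 for Cldn1, -1.39 for Sema4d and -0.57 for Tent5c, which fell in cDC1s, and -0.54 for Jdp2 and -0.49 for Gem, which rose in cDC2s. The cDC2 side rests on 2 RIPK3 samples, and without RIPK3 replicate 2 of cDC2s 0 genes were called.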

How the results depend on the processing

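All 810 genes called in cDC1s kept their direction under every alternative in which they were tested, and 347 of them were called whichever of the 9 cDC1 samples was left out. For 795 of the 810 the CPM of the compared groups did not overlap, so that leaving out a sample could hardly reverse their direction. In the comparison of RIPK3 with BimS debris in cDC1s, limma on unnormalized log2(count + 1) called 403 genes, 58 of them higher. Its median over all genes was -0.0877, and the cause of its smaller count was not tested. With the replicate block 1730 genes were called, 795 higher and 935 lower, and 808 of the 810 were among them. Under the block no call of a gene named here was lost, and the counts of the lists described that it moved by more than 1.5 times are given beside them. Leaving out a sample gave 489 to 1027 genes called, 220 to 472 higher and 269 to 563 lower, with the fewest without BimS replicate 3. In cDC2s the count of 73 was 46 with filterByExpr, 300 without a filter, 118 with DESeq2, 148 with limma on log2(count + 1), 2755 with the block and 253 with the compared groups alone, and ran from 0 (without cDC2 RIPK3 replicate 2) to 214 (without cDC2 WT replicate 3). The interaction count of 6 was 4 with filterByExpr, 25 without a filter, 13 with DESeq2, 3 with either limma fit and 27 with the block, and ran from 0 to 10 with a sample left out. Of 180 genes named or listed that were called, the call was lost for 2 with RLE size factors, 29 with DESeq2, 86 with limma on log2(count + 1), 24 with the compared groups alone, 0 with the block and 5 to 51 with a sample left out. Depth limits genes of a few reads, such as Wwtr1.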

Other observations

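Of 42 phosphoinositide kinases, phosphatases and phospholipases C, 6 rose and 4 fell with RIPK3 against BimS debris (7 and 7 with the replicate block, and 2 rose without RIPK3 replicate 2 and 2 fell without BimS replicate 1 or BimS replicate 3), with a median log2 fold change of 0.0047. Of 43 genes of integrins, adhesion and the cytoskeleton, 7 rose and 2 fell (10 and 4 with the block, and 4 and 0 without BimS replicate 3), among them the fibronectin receptor subunit Itga5, with a log2 fold change of 0.27 (edgeR adjusted p = 0.00113), and Clasp2, which stabilizes microtubules, also 0.27 (0.00194). Of 33 genes of TGF-beta signaling and collagens, 1 rose and 4 fell (4 and 5 with the block, and 0 and 2 without BimS replicate 3). The number that rose was 0 without RIPK3 replicate 2 and 2 without BimS replicate 1 or RIPK3 replicate 3. Of 25 p53 targets, 4 rose and 0 fell, among them the antiproliferative gene Btg2, with 0.31 (adjusted p = 3.21e-05). Over all genes tested, 1.94% rose and 2.21% fell.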
